A study of Mus musculus with 12 samples.

Results

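The interleukin-1 (IL-1) family was followed through 9 genes in RNA sequencing of chondrocytes, the cells that make cartilage matrix, taken as primary cells from mice. The members are the cytokines Il1a, Il1b, Il33 and Il18, the antagonist Il1rn, and the receptors Il1r1, Il1rap, Il1rl1 and Il1r2. They were chosen by symbol, and each symbol matched 1 Ensembl ID, so they are 9 of the 57010 gene IDs in the count tables. The 12 libraries, made from poly(A)-selected mRNA, carry 3 treatment labels, Control, WT and SIRT5F101L mutant, with 4 libraries each. Per the labels, chondrocytes were transfected with a wild-type or a SIRT5F101L mutant plasmid, and SIRT5 is a sirtuin that strips malonyl, succinyl and glutaryl groups off lysines. All 12 libraries have the genotype label wild type, so WT is here a plasmid and not a genotype. Which gene the WT plasmid carries, its promoter, what Control cells received, the animals' age and the time after transfection are not given in the sources used here. Nor do the labels say whether libraries of a group came from separate animals or cultures, so p-values measure only the spread between these libraries, which may be technical.

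IL-1 alpha and IL-1 beta bind the receptor IL-1R1, which then recruits the shared accessory chain IL-1RAP, and the adaptor MyD88 carries the signal to NF-kappaB. The antagonist IL-1Ra, made from Il1rn, binds IL-1R1 without recruiting the accessory chain, and the decoy IL-1R2 binds IL-1 but lacks the signalling domain. IL-33 uses the same accessory chain through its own receptor ST2, made from Il1rl1, while IL-18 has a receptor pair of its own. In cartilage IL-1 is known for switching chondrocytes from making matrix to releasing matrix-degrading enzymes.

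Libraries held 15095357 to 24242139 counts, and a floor of 3 counts, under which no order is read, was worth 0.120 to 0.195 CPM (counts scaled to library size with TMM factors). Floors and counting intervals cover counting error only, since no molecular identifiers are described. Sirt5, the gene named on the mutant plasmid, had 9 to 16 counts in Control, 1 to 9 in WT and 9 to 19 in SIRT5F101L libraries, so no rise was detectable with either label and the groups are named by their labels throughout. Each of the 926 X-linked, 174 Y-linked and 13 mitochondrial protein-coding IDs was at 0 in all 12 libraries. So were B2m and Myd88, autosomal genes that nearly every cell uses, and a 0 here therefore does not show that a gene is silent. SIRT5F101L replicate 1 lay at 20.3 on the second principal component, against -23.5 to -17.0 in the other libraries of its group and -1.07 to 20.1 in WT libraries, so comparisons that rest on it are given with and without it. Every chondrocyte marker examined, Col2a1, Acan and Sox9 among them, had counts in every library.

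The antagonist was the most abundant member in every library. Levels of different genes were ordered as CPM per kilobase of the longest coding transcript. On this scale Il1rn stood at 277 ± 17.2 (SD, n = 4) in Control, 166 ± 7.24 in WT and 175 ± 10.7 in SIRT5F101L libraries. It made up 90.8% ± 0.689 of the summed per-kilobase level of the 9 members in Control, 78.2% ± 0.313 in WT and 76.6% ± 1.76 in SIRT5F101L. The receptor Il1rl1 came next, with a share of 3.24% ± 0.109 in Control, 16.5% ± 0.214 in WT and 17.8% in SIRT5F101L (16.3% to 19.2%). These levels and shares depend on the length used. Per kilobase of merged exons, which are longer for Il1rn, its levels were 124, 74.3 and 78.1 and its shares 84.0%, 66.8% and 64.9%, while the shares of Il1rl1 were 5.16%, 24.3% and 25.9%. In Control, Il1rl1 (9.10 to 10.6), Il1r1 (8.20 to 9.38) and Il18 (5.45 to 8.94) followed as neighbours whose ranges overlapped. Il33 was clear of these and of the members below it, at 0.644 to 1.35. In both plasmid groups Il1rl1, Il1r1, Il18 and Il33 kept that order with no overlap between neighbours. Il1r2, Il1rap, Il1b and Il1a held the lowest 4 places in every group. In Control Il1r2 (0.300 to 0.429) lay above Il1rap (0.0846 to 0.167) without overlap. Il1rap overlapped Il1r2 in WT and lay above it without overlap in SIRT5F101L. Per kilobase of merged exons the SIRT5F101L ranges overlapped too (Il1rap 0.0800 to 0.235, Il1r2 0.0297 to 0.140). No order is therefore read between them in the plasmid groups, nor between Il1a and Il1b in any group.

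**Figure D1:**
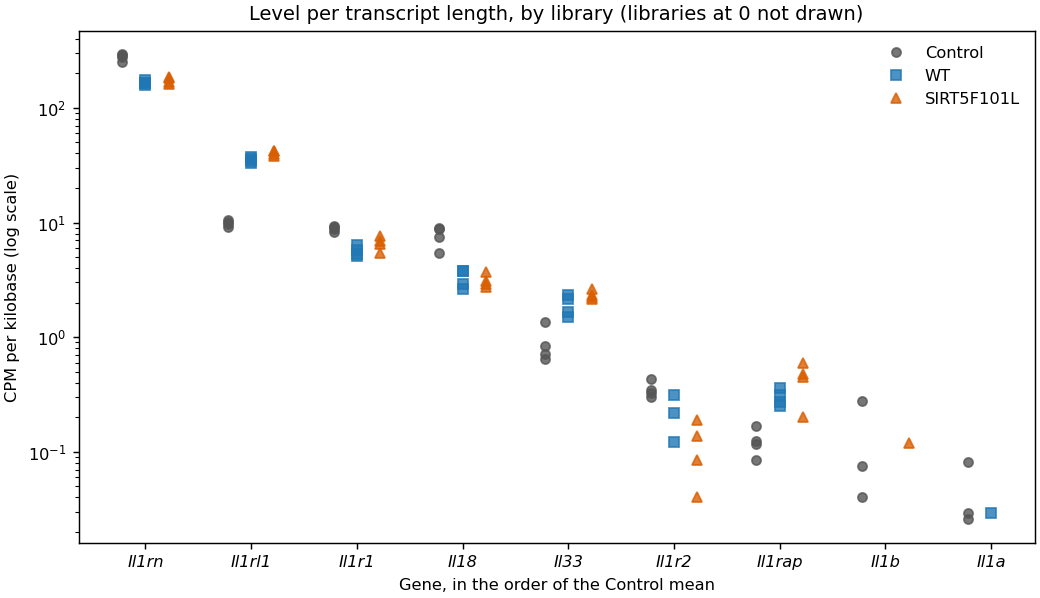
Level of each member in CPM per kilobase of its longest coding transcript, on a log axis, with 1 point for each library and the genes in the order of their Control means; libraries at 0 are not drawn. Il1rn lies above all other members in every group, and Il1rl1, close to Il1r1 in Control, stands apart from it in the plasmid groups, at 33.3 to 37.6 in WT and 38.3 to 42.0 in SIRT5F101L.

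Of the 9 members, 6 passed the expression filter, and all 6 differed from Control in both plasmid groups by edgeR's quasi-likelihood test at an adjusted p under 0.05. Il1rl1, Il1rap and Il33 were higher, and Il1rn, Il1r1 and Il18 were lower. Over all 14253 genes tested, 56.8% differed in WT (28.7% higher, 28.1% lower) and 60.7% in SIRT5F101L (30% higher, 30.7% lower), so a call by itself sets no member apart. The groups did not overlap for any of the 6, where 53.5% and 51.3% of all tested genes did not overlap. Without SIRT5F101L replicate 1 all 6 kept their direction and their call. The remaining 3, Il1a, Il1b and Il1r2, were too low for the fit. Near its limit the filter favours genes that rise. Il1rap, with 7 to 13 counts in Control and 17 to 54 in plasmid libraries, passed through the plasmid libraries. Il1r2, with 8 to 12 counts in Control and fewer in most plasmid libraries, did not pass. The call and the lack of overlap of Il1rap are therefore a description. The comparisons of WT and SIRT5F101L with Control share the Control libraries, and their values are given side by side.

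**Figure D2:**
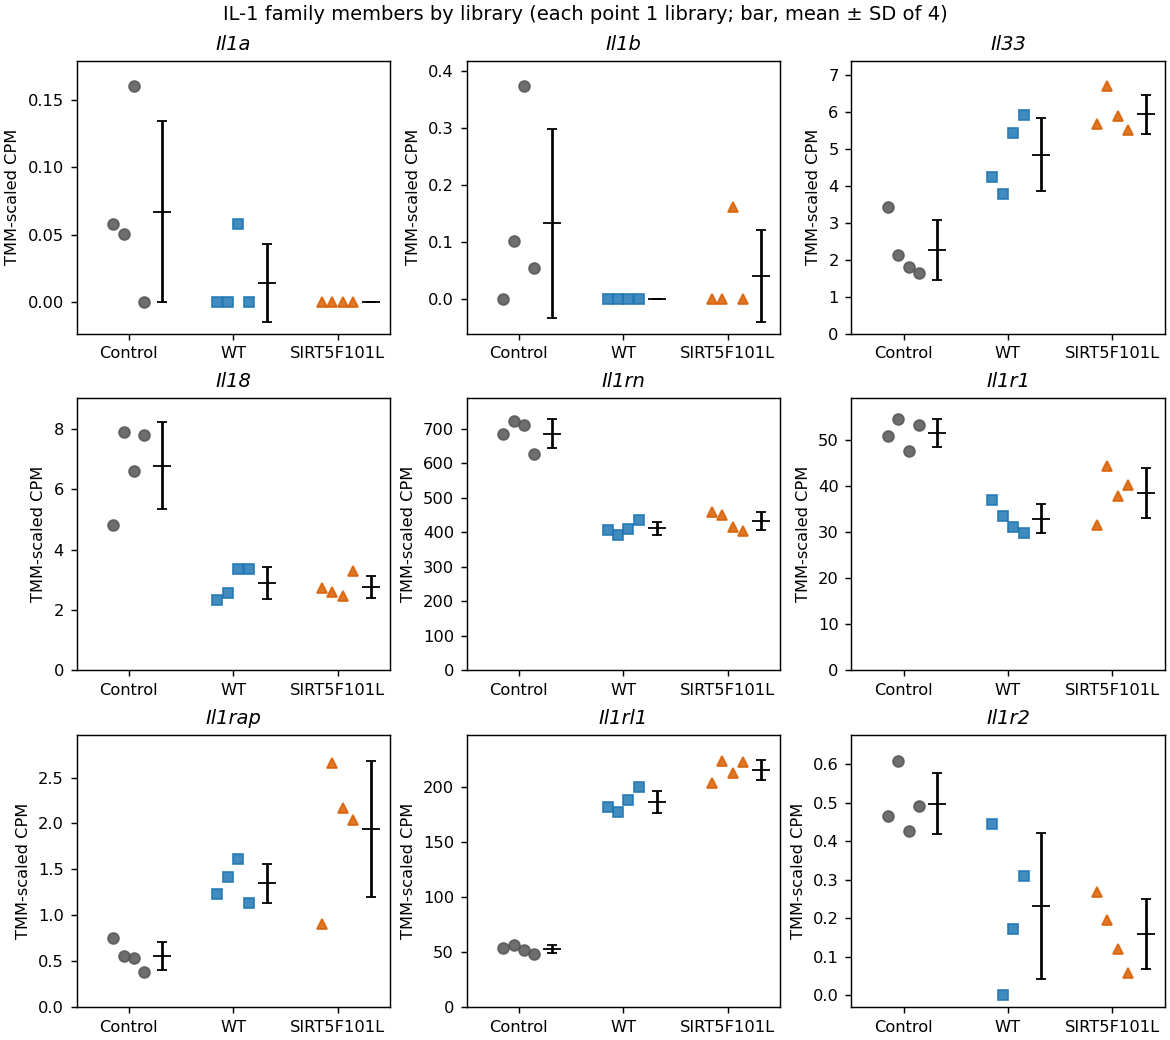
TMM-scaled CPM of the 9 members, with 1 point for each library (4 for each group) and a bar for the mean ± SD; each panel has its own linear axis. Il1rl1, Il1rap and Il33 lie higher, and Il1rn, Il1r1 and Il18 lower, in every plasmid library than in every Control library, while Il1a and Il1b stay at 0 to 7 counts.

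The IL-1 agonists themselves were near or at the floor. Il1a (ENSMUSG00000027399) was counted 1, 1, 3 and 0 times in the Control libraries (in the order of replicates 1 to 4, as for all members), 0, 0, 1 and 0 times in WT and 0 in all 4 SIRT5F101L libraries. Il1b (ENSMUSG00000027398) had 0, 2, 7 and 1 counts in Control, 0 in all 4 WT libraries and 0, 0, 4 and 0 in SIRT5F101L. A single library, Control replicate 3, held most of the Control counts of each gene, and the groups overlapped. Summed over a group, 10 Il1b counts in Control have an exact 2-sided 95% Poisson interval of 4.80 to 18.4. The 0 in WT allows up to 3 counts, or 0.0413 CPM over the group. That limit is 1-sided, so it is tighter than the 2-sided kind. Exact 2-sided permutation of the libraries gave p = 0.143 to 1 for these genes (adjusted p = 0.321 to 1 over 9 tests). The smallest p that 70 arrangements allow is 0.0286, so a single gene cannot pass 0.05 after adjustment over these tests, and whether the levels differ is not settled. Exons of Il1a overlap those of an antisense gene, Gm14023, over 11.2% of their length, and those of Il1b overlap Il1bos over 1.31%. Of the Il1a transcript, 11.4% matches another transcript at 95% identity or more. Reads from antisense partners cannot be told apart without a stated strand setting.

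Il1rn (ENSMUSG00000026981), which encodes the receptor antagonist, was high everywhere and fell in both plasmid groups. Its level was 686, 722, 710 and 626 CPM in Control, 407, 393, 408 and 436 in WT and 458, 450, 416 and 403 in SIRT5F101L. Every plasmid library lay below every Control library, and the plasmid groups overlapped. The log2 fold change was -0.74 in WT (SE 0.06, edgeR adjusted p = 3.58e-09) and -0.67 in SIRT5F101L (SE 0.06, adjusted p = 1.53e-08), which is 0.599 and 0.630 times the Control level. Between the plasmid groups it was 0.07, with a 95% interval of -0.06 to 0.20 (edgeR adjusted p = 0.645).

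The antagonist stood far above the agonists in every group. Summed over 4 libraries, Il1rn had 50847 counts in Control beside 5 of Il1a and 10 of Il1b, all uncorrected for transcript length. In WT it had 29929 beside 1 and 0, and in SIRT5F101L 32997 beside 0 and 4. The log2 ratio of Il1rn to Il1a plus Il1b counts, with 0.5 added to each, had a median of 12.4 in Control, 13.8 in WT and 13.8 in SIRT5F101L. With 2 added these medians were 11.7, 11.8 and 11.8, so their difference rests on the number added and no order between groups is read from them.

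The fall of Il1rn ran beside a fall of most tested leukocyte markers. Of 14 leukocyte and macrophage markers 9 were tested, of which 7 were lower and 2 higher in each plasmid group. Over all tested genes 28.1% were lower and 28.7% higher in WT, and 30.7% were lower and 30% higher in SIRT5F101L. Lyz2, a macrophage lysozyme, fell (log2 fold change -1.05 in WT and -1.03 in SIRT5F101L), as did the macrophage growth factor receptor Csf1r (-0.92 and -0.72), the macrophage marker Adgre1 (-2.03 and -1.89) and the pan-leukocyte marker Ptprc (-1.28 and -1.40). Cd14 rose by 2.05 and 2.27, and Ly6g, with 0 to 2 counts in Control, by 4.22 and 4.09, a fitted size that is uncertain. Ly6g passed the filter only through the plasmid libraries. The summed level of the list was 173 to 209 CPM in Control, 133 to 153 in WT and 142 to 182 in SIRT5F101L, with Ptprc at 5 to 40 counts in a library and Itgam and Cd3e at 0. The part of such cells in the level of Il1rn was not tested, and in bulk RNA fewer cells of a type and less RNA per cell cannot be told apart.

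RefSeq lists 3 starts for Il1rn, and first exons are known to set whether the antagonist is secreted or stays in the cell. The counts are per gene and do not separate them. The 250 bases before the first and the third start are shown because they hold, in capitals, matches to the NF-kappaB-like letters GGGNNNNNCC or the AP-1 letters TGANTCA on either strand, at chr2:24336610-24336859 and chr2:24345121-24345370 (GRCm38.p6, plus strand).
Il1rn start 1: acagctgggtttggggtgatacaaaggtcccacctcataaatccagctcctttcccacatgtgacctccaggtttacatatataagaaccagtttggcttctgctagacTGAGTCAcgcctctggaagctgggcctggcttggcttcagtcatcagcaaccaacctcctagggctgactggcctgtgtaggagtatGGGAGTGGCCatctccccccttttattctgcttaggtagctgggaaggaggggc
Il1rn start 3: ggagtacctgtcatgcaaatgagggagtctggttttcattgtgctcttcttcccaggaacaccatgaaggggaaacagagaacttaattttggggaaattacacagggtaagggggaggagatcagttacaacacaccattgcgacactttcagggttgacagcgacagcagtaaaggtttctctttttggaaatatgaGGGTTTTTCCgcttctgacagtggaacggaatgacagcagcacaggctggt
Of 32851 RefSeq promoter windows of this length, 45.8% hold GGGNNNNNCC and 6.75% hold TGANTCA, so the first is common, and a match is a description of letters only.

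Of the other cytokines, Il33, an alarmin released from damaged cells, rose. It stood at 3.43, 2.13, 1.81 and 1.64 CPM in Control, 4.24, 3.78, 5.43 and 5.92 in WT and 5.67, 6.69, 5.90 and 5.50 in SIRT5F101L. Control replicate 1 was the highest of its group and still below every plasmid library. The change was 2.16-fold in WT (95% interval 1.59 to 2.95, edgeR adjusted p = 0.000168) and 2.64-fold in SIRT5F101L (1.95 to 3.58, adjusted p = 9.36e-06), from 30 to 147 counts in a library.

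Il18, a cytokine that induces interferon gamma in lymphocytes, fell. Its levels were 4.82, 7.91, 6.60 and 7.81 CPM in Control, 2.32, 2.57, 3.35 and 3.34 in WT and 2.73, 2.60, 2.45 and 3.29 in SIRT5F101L. The lowest Control library, replicate 1, lay above all 8 plasmid libraries. The log2 fold change was -1.23 in WT (SE 0.19, edgeR adjusted p = 1.28e-05) and -1.30 in SIRT5F101L (SE 0.19, adjusted p = 5.98e-06), and the fall stood beside the same leukocyte markers, whose part in it was not tested.

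Among the receptors, Il1rl1 (ENSMUSG00000026069), which encodes the IL-33 receptor ST2, had the highest fold change of the 6 tested members by its point estimate, though the interval of Il1rap includes it and Il18rap, a family gene outside the 9, had a higher one. It measured 53.9, 56.1, 51.5 and 48.2 CPM in Control, 181, 176, 188 and 199 in WT and 203, 223, 212 and 222 in SIRT5F101L. Neither plasmid group came near the Control range, and every SIRT5F101L library lay above every WT library. The rise was 3.55-fold in WT (95% interval 3.24 to 3.90, edgeR adjusted p = 2.52e-15) and 4.10-fold in SIRT5F101L (3.73 to 4.50, adjusted p = 4.81e-16). Among all tested genes, 96.2% and 96.8% had a lower log2 fold change. Per kilobase Il1rl1 was 0.995 to 1.18 times Il1r1 in Control libraries, 5.36 to 7.33 times in WT and 5.52 to 7.07 times in SIRT5F101L.

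Il1rl1 is known to be read from a distal promoter in mast cells and from a proximal one in fibroblasts, and its transcripts encode a membrane receptor or a soluble decoy. The gene counts separate neither starts nor isoforms. The 250 bases before the 2 starts that RefSeq gives are shown because this gene had the lowest adjusted p of the members, at chr1:40429320-40429569 and chr1:40439379-40439628 (GRCm38.p6, plus strand).
Il1rl1 start 1: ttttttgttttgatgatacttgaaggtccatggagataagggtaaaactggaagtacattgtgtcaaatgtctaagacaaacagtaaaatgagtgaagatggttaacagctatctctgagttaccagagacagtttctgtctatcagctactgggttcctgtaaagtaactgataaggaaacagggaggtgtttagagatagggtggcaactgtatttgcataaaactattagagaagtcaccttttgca
Il1rl1 start 2: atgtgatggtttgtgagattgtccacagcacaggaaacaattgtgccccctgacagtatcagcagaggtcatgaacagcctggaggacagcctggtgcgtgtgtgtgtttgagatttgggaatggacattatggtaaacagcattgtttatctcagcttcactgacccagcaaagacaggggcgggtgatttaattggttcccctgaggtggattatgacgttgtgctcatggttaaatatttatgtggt
Neither window holds GGGNNNNNCC or TGANTCA, which says only that these letters are not in these bases. Of 6 mast cell markers, Cpa3, Mcpt4, Fcer1a and Tpsb2 were at 0 in all 12 libraries, Kit had 5 to 12 counts in Control and 0 to 4 in the plasmid groups, and Hdc, which makes histamine, rose by 2.26 and 1.66 on the log2 scale. The list summed to 0.601 to 1.37 CPM in Control, 2.17 to 2.62 in WT and 1.04 to 2.25 in SIRT5F101L, and their part in the level of Il1rl1 was not tested. Of 5 synovial fibroblast markers, 4 rose and 1 fell in each plasmid group by edgeR. Over all tested genes 28.7% were higher and 28.1% lower in WT, and 30% were higher and 30.7% lower in SIRT5F101L. Prg4, the lubricin of the joint surface, rose by 0.41 and 0.54 on the log2 scale, Pdpn by 1.75 and 1.87, Pdgfra by 0.39 and 0.62 and Cd34 by 3.02 and 3.07, while Thy1 fell (-1.22 and -1.21). This list, with none of its genes at 0 in all libraries, summed to 1396 to 1665 CPM in Control, 1970 to 2213 in WT and 2164 to 2425 in SIRT5F101L. Most of each sum was Prg4, with means of 1173, 1554 and 1705 CPM. The part of this list in the level of Il1rl1 was not tested either.

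Il1r1 (ENSMUSG00000026072), the signalling receptor for IL-1, fell moderately. It measured 51.0, 54.6, 47.7 and 53.2 CPM in Control, 37.1, 33.5, 31.2 and 29.9 in WT and 31.5, 44.3, 37.9 and 40.2 in SIRT5F101L. All plasmid libraries lay below all Control libraries, and SIRT5F101L replicate 1 was the lowest of its group. The log2 fold change was -0.65 in WT (SE 0.09, edgeR adjusted p = 6.12e-06) and -0.43 in SIRT5F101L (SE 0.09, adjusted p = 0.000528). Without SIRT5F101L replicate 1 the latter was -0.34 (SE 0.08, edgeR adjusted p = 0.000404).

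Il1rap (ENSMUSG00000022514), the accessory chain that IL-1R1 and ST2 share, rose from a low level and passed the filter through its plasmid libraries. It had 13, 11, 10 and 7 counts in Control, 25, 22, 28 and 22 in WT and 17, 41, 54 and 36 in SIRT5F101L. In CPM no plasmid library fell into the Control range, and SIRT5F101L replicate 1, at 0.909 CPM, lay under the 2.04 to 2.66 of its group and under every WT library. The rise was 2.40-fold in WT (95% interval 1.43 to 4.04, edgeR adjusted p = 0.00532) and 3.46-fold in SIRT5F101L (2.10 to 5.72, adjusted p = 0.000166). Without SIRT5F101L replicate 1 the log2 fold change in SIRT5F101L was 2.03 in place of 1.79, and the call held. Per kilobase it remained under Il1r1 and Il1rl1 in every library, at 0.0846 to 0.167 in Control and 0.201 to 0.589 in the plasmid groups. Membrane and soluble forms are not separated, 4.86% of its exon length overlaps the antisense gene Gm20319, and 7.85% of its longest transcript matches another transcript at 95% identity or more.

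The window before the RefSeq start of Il1rap is shown as the member window with the most matches to GGGNNNNNCC, 6 on both strands with overlaps, in capitals, at chr16:26581455-26581704 (GRCm38.p6, plus strand). It holds no TGANTCA.
Il1rap start: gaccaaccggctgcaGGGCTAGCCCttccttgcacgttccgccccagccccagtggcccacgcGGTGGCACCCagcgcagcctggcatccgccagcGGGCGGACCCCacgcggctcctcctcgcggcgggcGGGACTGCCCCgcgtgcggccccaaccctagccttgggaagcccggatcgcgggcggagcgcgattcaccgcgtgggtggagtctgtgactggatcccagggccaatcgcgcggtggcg

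The decoy receptor Il1r2 was near the floor. It had 8, 12, 8 and 9 counts in Control, 9, 0, 3 and 6 in WT and 5, 3, 3 and 1 in SIRT5F101L. Control and SIRT5F101L libraries did not overlap, while 1 WT library, replicate 1, lay within the Control range. The group means were 0.498 ± 0.0785 (SD, n = 4), 0.232 ± 0.190 and 0.160 ± 0.0913 CPM. By exact 2-sided permutation p was 0.0571 for WT and 0.0286 for SIRT5F101L against Control, each 0.257 when adjusted over 9 tests, a number of tests after which no single gene can pass here. Per kilobase its mean level was 0.351, 0.163 and 0.113, beside 8.87, 5.65 and 6.62 for the signalling receptor Il1r1. The log2 ratio of Il1r2 to Il1r1 counts with 0.5 added to each, which takes no account of their lengths of 1419 and 5819 bases, had medians of -6.69, -6.88 and -7.84. With 2 added the medians were -6.47, -6.47 and -7.33, so no step between Control and WT is read from them.

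The plasmids were then compared directly. With all libraries 0 of the 6 tested members differed between SIRT5F101L and WT by edgeR (0 by DESeq2), beside 0.0421% of all genes. At an unadjusted p under 0.05 there were 2 of 6, beside 11.9%. These were Il1rl1, with a log2 fold change of 0.21 (95% interval 0.08 to 0.33, edgeR adjusted p = 0.313, no overlap, as for 4.02% of all genes), and Il1r1, with 0.22 (0.03 to 0.42, adjusted p = 0.379, overlapping). SIRT5F101L replicate 1 was singled out in these same libraries for lying near WT on the second principal component. Calls made without it are therefore a description. Without it both Il1rl1 and Il1r1 were called higher in SIRT5F101L, beside 15.2% of all genes (6.66% higher). Il1rl1 was then at 0.23 (SE 0.06, edgeR adjusted p = 0.00651) and Il1r1 at 0.31 (SE 0.08, adjusted p = 0.00912). Il1rap, whose SIRT5F101L replicate 1 was low, then stood at 0.76 (SE 0.31, edgeR adjusted p = 0.0922) in place of 0.53 (SE 0.31, adjusted p = 0.494), and 3 of 6 members had an unadjusted p under 0.05, beside 28.1% of all genes in that fit. With all libraries the interval for Il33 was -0.12 to 0.69, that for Il1rap -0.12 to 1.18 and that for Il18 -0.49 to 0.35, so differences of these sizes are not excluded.

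**Figure D3:**
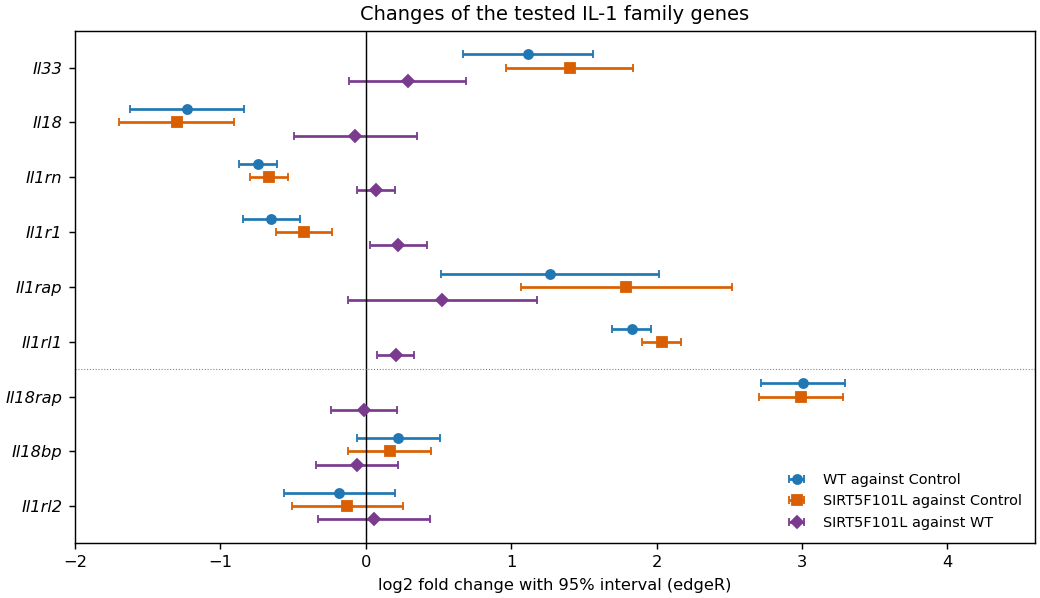
Log2 fold changes from edgeR with 95% intervals for the 6 tested members (above the dotted line) and the 3 tested genes of the other family list, in 3 comparisons. Il1rl1 and Il18rap lie farthest to the right against Control, and the intervals between the plasmid groups cross 0 for all but Il1rl1 and Il1r1.

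The rest of the family was mostly too low to test. Of 12 further family genes, 3 passed the filter, 1 of which rose in both plasmid groups and 2 of which were not called. Il18rap, the accessory chain of the IL-18 receptor, went from 1.70 ± 0.192 CPM (SD, n = 4) in Control to 13.7 ± 1.43 in WT and 13.6 ± 1.25 in SIRT5F101L, a log2 fold change of 3.01 and 2.99 (SE 0.14, edgeR adjusted p = 2.25e-13 and 2.26e-13). Its partner Il18r1, the chain that binds IL-18, had only 0 to 7 counts in any library. Il18bp, a soluble inhibitor of IL-18, stood at 7.33, 8.56 and 8.27 CPM, and Il1rl2, the IL-36 receptor, at 3.73, 3.30 and 3.43. Il36g, an IL-36 agonist, had 0 to 3 counts in Control, 0 to 7 in WT and 5 to 15 in SIRT5F101L and was not tested. Il36b, Il1rapl1 and Il1rapl2 were at 0 in all 12 libraries, the last pair being X-linked.

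Several of these receptors lie side by side, and they moved differently. In the RefSeq order Il1r2, Il1r1, Il1rl2, Il1rl1, Il18r1 and Il18rap are consecutive protein-coding genes on chromosome 1. Within this row Il1r1 fell, Il1rl2 stood at -0.18 and -0.13 (edgeR adjusted p = 0.418 and 0.569), and Il1rl1 and Il18rap rose. The nearest expressed gene on one side, the kinase Map4k4, rose by 0.51 and 0.60, and on the other side Slc9a4 and Slc9a2 had at most 6 counts. Il1rn lies at the end of a row with the IL-36 genes and Il1f10 on chromosome 2, and beyond it Psd4 rose by 0.43 and 0.49 while Il1rn fell and Pax8 was not called.

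**Figure D4:**
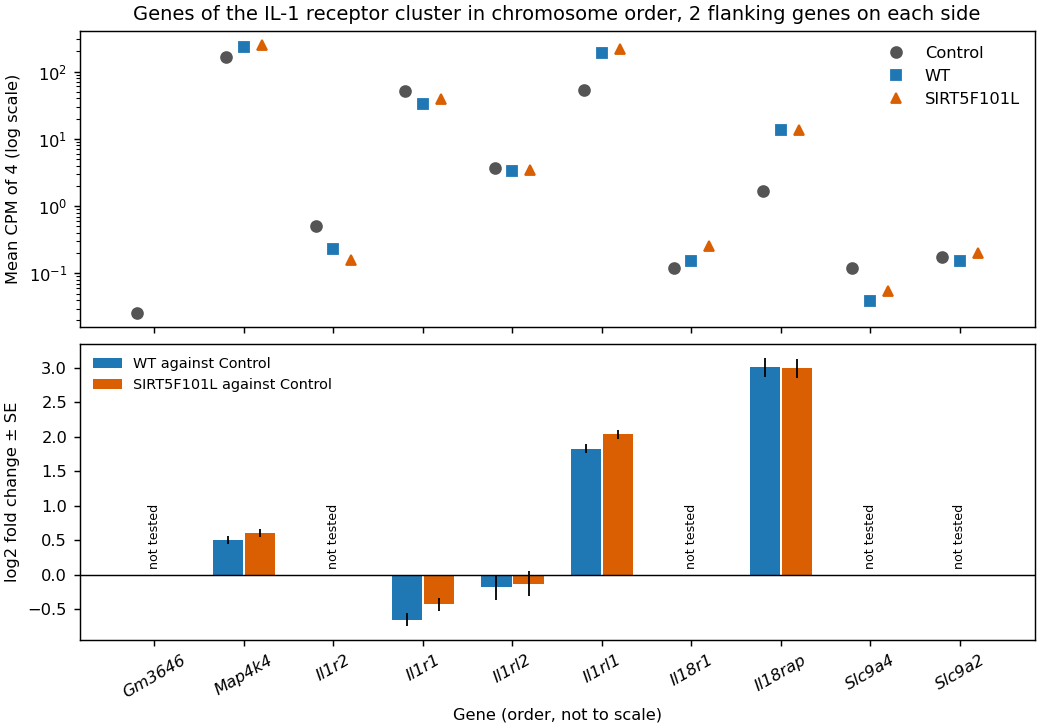
Genes of the chromosome 1 receptor cluster in their order, not to scale, with 2 flanking genes on each side; the upper panel gives the mean CPM of each group on a log axis (means of 0 not drawn) and the lower panel the log2 fold change ± SE from edgeR. Falling Il1r1 and rising Il1rl1 are separated only by Il1rl2, and Il18rap has the highest fold changes.

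Genes with the most similar profile were sought by the root mean square difference of centred log2 CPM over the 12 libraries, among 9788 genes averaging 5 CPM or more. For Il1rl1 these were Ivns1abp (0.0816), Jam2 (0.0846) and Rai14 (0.0846). For Il1rn they were Chmp2b (0.0555), Sars (0.0650) and Dcxr (0.0686), and for Il1r1 they were Tcf4 (0.0753), Top2b (0.0777) and Dennd4a (0.0843). These measures describe 12 shared libraries and carry no test.

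Genes that carry the IL-1 signal were taken from a list of 21. Of the 17 tested, 11 rose and 1 fell in WT, and 11 rose and 2 fell in SIRT5F101L, with a median log2 fold change of 0.31 and 0.32 against -0.01 and -0.02 over all genes. Of all genes 56.8% and 60.7% were called. The 3 highest fold changes were those of Nfkbiz, Tnfaip3 and Zc3h12a. Nfkbiz, an inducible NF-kappaB cofactor, rose by 2.65 and 2.81, Tnfaip3, which shuts the pathway off, by 1.82 and 1.85, and the RNase Zc3h12a by 1.30 and 1.41. The kinase Map3k7 (0.22 and 0.32) and the IkappaB kinase Chuk (0.25 and 0.32) rose little, and Tab1, a partner of Map3k7, fell (-0.32 and -0.40). Tollip, an inhibitor of IRAK kinases, was the other gene lower in SIRT5F101L (-0.23), and it stood at -0.13 in WT (edgeR adjusted p = 0.086). Myd88 and the X-linked Irak1, Tab3 and Ikbkg were at 0 in all libraries and cannot be judged.

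Processing and release of the cytokines were followed in 13 genes, 11 of them tested. In WT 6 rose and 1 fell, and in SIRT5F101L 4 rose and 1 fell. These 7 and 5 of 11 lie near or under the 56.8% and 60.7% called over all genes, and the medians were 0.19 and 0.14 against -0.01 and -0.02. Casp4, the murine caspase-11, rose by 2.42 and 2.74, the pore former Gsdmd by 1.68 and 1.58, and Nek7, a partner of the NLRP3 inflammasome, by 0.84 and 0.96. Casp1, which cleaves pro-IL-1 beta and pro-IL-18, had 12 to 37 counts in Control and 7 to 19 in the plasmid libraries. Its log2 fold change was -1.10 in WT (edgeR adjusted p = 0.0223) and -0.75 in SIRT5F101L (adjusted p = 0.0935). The gene that fell in SIRT5F101L was Pycard, the inflammasome adaptor ASC, at -0.85 (edgeR adjusted p = 0.00728) against -0.41 in WT (adjusted p = 0.172). The calpains Capn1 (0.28) and Capn2 (0.19), proteases of the kind that cut pro-IL-1 alpha, rose in WT, and in SIRT5F101L they stood at 0.14 (edgeR adjusted p = 0.0505) and 0.13 (adjusted p = 0.0559). The difference between the plasmid groups was not called for either.

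Genes known to respond to IL-1 in chondrocytes spanned a wider range than the family. Of 17 listed, 16 were tested, with 12 higher and 4 lower in WT, and 11 higher and 4 lower in SIRT5F101L, where 56.8% and 60.7% of all genes were called. The medians were 2.23 and 2.43 against -0.01 and -0.02 over all genes. Lcn2, an iron-binding acute-phase protein, went from 4.36 ± 1.28 CPM (SD, n = 4) in Control to 310.5 ± 34.5 in WT and 356 ± 50.1 in SIRT5F101L. Saa3 and the stromelysin Mmp3 rose by 7.95 and 6.55 in WT. Lower were the cartilage collagen Col2a1 (-2.01 and -2.36), the aggrecanases Adamts4 (-1.53 and -1.37) and Adamts5 (-0.45 and -0.27), and Sox9, the chondrocyte transcription factor (-0.20 and -0.34). Adamts4 and Adamts5 are known to rise with IL-1, and Acan, the main cartilage proteoglycan, was higher in WT (0.47) and not called in SIRT5F101L (0.10). The list was drawn up with such changes in these libraries already known, so its direction is a description. In the same libraries Il1a and Il1b had 0 to 7 counts.

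**Figure D5:**
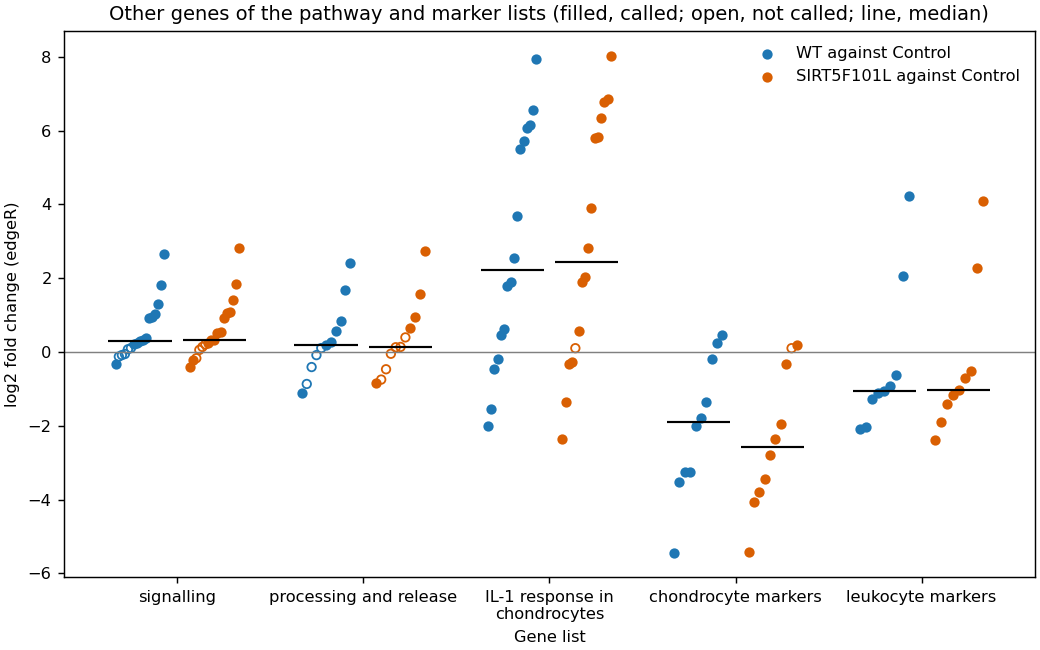
Log2 fold change against Control of each tested gene in 5 lists, in WT and SIRT5F101L; filled points were called by edgeR, open points were not, and the line is the list's median. The IL-1 response list spreads from below -2 to about 8, the signalling list has its highest point at Nfkbiz (2.65 and 2.81), and most leukocyte markers lie below 0.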

How the data were processed

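The authors deposited whole-number counts per Ensembl gene ID, 1 table for each of 12 libraries, without a header line. The labels' protocols give poly(A) capture on oligo-dT beads and paired-end reads of 150 bp, and per the submitters' processing notes FastQC 0.11.9, HISAT2 2.2.1, HTSeq 2.0.2, DESeq2 1.38.3 and the build GRCm39 were used, with no role or order given. The strand setting and annotation release are not given in the sources used here.

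From these counts, genes passing edgeR's default filter (14253) were TMM-scaled and fitted by quasi-likelihood over the 12 libraries together, each group having its own mean (edgeR 4.0.16, R 4.3.3, 9 residual degrees of freedom). Adjusted p-values are Benjamini-Hochberg over all tested genes, 2-sided, called under 0.05, and the SE is the log2 fold change divided by the square root of F. Low members were compared by exact permutation. Replicates were numbered in accession order, which pairs no libraries. The pipeline was tested on simulated counts. Alternatives were RLE and upper-quartile scaling, other filters, a robust prior, fits of 8 libraries, DESeq2 (1.42.0) and leaving out each library.

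Symbols came from a table of Ensembl names (52029 of 57010 IDs matched), lengths and exon overlaps from GENCODE M21 and promoters from RefSeq, both on GRCm38, which is not the authors' build. All 9 members matched a promoter entry. The members and gene lists were chosen with earlier results of these data known. Genes named are the members, further family genes that passed the filter, the 3 highest and 3 lowest called in WT from each pathway list, markers, cluster neighbours and the 3 most similar profiles. Il36g, Il18r1, B2m, Tollip, Pycard, Sox9 and Acan were named after their values were seen.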

Additional observations from a re-analysis of the deposited data

Results flagged for a closer look

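The level of each member was screened in each group for a library far from the other 3, by the ratio of its gap to the group's range (Dixon's test at 95%). Of 25 such groups with any spread, 2 passed. In both 3 libraries were at 0, where the ratio is 1 whatever the count in the other, so the usual chance of about 1 in 20 groups does not apply. Il1a stood at 0.0578 CPM in WT replicate 3, from 1 count, with the other WT libraries at 0. Il1b stood at 0.160 CPM in SIRT5F101L replicate 3, from 4 counts in the deepest library, with the other SIRT5F101L libraries at 0. The Il1a value is below the floor of 3 counts, and the Il1b value is next to it.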

How the results depend on the processing

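Against Control, all 6 tested members kept their direction and their call under each of the 19 alternatives, and the counts of members called were 6 in each. Under the scaling alternatives the median log2 fold change of all genes lay between -0.06 and 0.01. Between the plasmid groups the count of members called ran from 0 to 2 over fits that left out 1 library, with 2 reached only without SIRT5F101L replicate 1. In these fits the log2 fold change ran from 0.18 to 0.24 for Il1rl1, from 0.15 to 0.31 for Il1r1 and from -0.17 to 0.01 for Il18, which turned positive without WT replicate 3 (0.0035) or WT replicate 4 (0.0085). The count over all genes between the plasmid groups was 6, and became 354 with no filter beyond 1 count, 2 with a robust prior, 2 in the fit of the 8 libraries compared, 43 with DESeq2 and 0 to 2213 when 1 library was left out, the highest without SIRT5F101L replicate 1; the cause was not tested. With a prior count of 2 the median log2 ratio of Il1rn to Il1a plus Il1b was 11.8 in WT and 11.8 in SIRT5F101L, and that of Il1r2 to Il1r1 in Control was -6.47. Per kilobase of merged exons, an alternative chosen after seeing the data, Il1rn was at 124 in place of 277 in Control and 5 of 9 members kept their place in the Control order by mean. Il1r1 (8.11) and Il1rl1 (7.60) exchanged places, as did Il1b and Il1rap, and the ranges overlapped within both pairs, so no order is read there. With this length Il1r2 and Il1rap exchanged places in WT, and their ranges overlapped in both plasmid groups. No paired analysis was possible because the labels give no replicate numbers. Depth limits Il1a, Il1b and Il1r2, whose counts were 0 to 12 in a library.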

Other observations

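Markers of chondrocytes and of other cells that cartilage preparations could hold were measured beside the family. Of 10 chondrocyte markers 8 fell in each plasmid group by edgeR, where 28.1% of all tested genes were lower in WT and 30.7% in SIRT5F101L. The list's median log2 fold change was -1.90 in WT and -2.57 in SIRT5F101L, against -0.01 and -0.02 over all genes. The other 2 markers were higher in WT, Acan (0.47) and Hapln1 (0.25), which encodes the link protein of cartilage matrix. In SIRT5F101L Hapln1 was higher (0.18, edgeR adjusted p = 0.0329) and Acan was not called (0.10).

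None of the 4 endothelial markers was called against Control by edgeR, and they summed to 3.50 to 4.53 CPM in Control libraries and at most 3.91 CPM in plasmid libraries. Of 4 epithelial markers only Cdh1 was tested, with 2 to 10 counts in Control, and it passed the filter through the plasmid libraries. It was called higher in SIRT5F101L (1.59, edgeR adjusted p = 0.0184), though the groups overlapped, and was not called in WT (0.86). Krt5 and Krt14, which mark skin epithelium, a known source of IL-1 alpha, had 0 to 3 counts in every library.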
